A study of Drosophila melanogaster with 4 samples.

Results

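The small heat shock protein genes of cytological region 67B are 7 genes of the table, matched by gene name: Hsp22, Hsp23, Hsp26, Hsp27, Hsp67Ba, Hsp67Bb and Hsp67Bc. They were followed among 13990 genes in messenger RNA of whole adult male Drosophila melanogaster. The flies carried 1 of 2 alleles of Ago2, the gene of the Argonaute protein that is loaded with small interfering RNAs. Per the labels, the V966M homozygote was V966M/ V966M, the V966M heterozygote was V966M / TM3,twi-GFP,Sb,Ser, the 51B homozygote was 51B / 51B and the 51B heterozygote was 51B / TM3, Ser, y+. All males were 0 to 16 hr old and had been grown at 25 °C, and no heat treatment is named in the labels. No genotype was wild type for Ago2, because each heterozygote kept 1 mutant copy over a TM3 balancer, a rearranged copy of the chromosome that holds both Ago2 and the 67B cluster, in which recombination is suppressed. The balancers of both stocks carried different markers. Each genotype had 1 value per gene although the design text states that it was sequenced 2 times, so no difference below has a replicate check or a p-value.

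Small heat shock proteins are chaperones that hold unfolding proteins in a soluble state until ATP-dependent chaperones such as Hsp70 refold them. Most carry a conserved alpha-crystallin domain and assemble into oligomers. In Drosophila the 67B genes are transcribed after heat shock through heat shock factor, and several are also expressed without heat in development, some of them under ecdysone, and with age. Hsp22 acts in the mitochondrial matrix, Hsp23 and Hsp26 in the cytosol and Hsp27 in the nucleus. Hsp67Bc is a cytosolic member that works with the co-chaperone Starvin. Hsp67Bb lies in the cluster but encodes a rhodanese-like domain.

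The cluster spanned 13.8 kb of chromosome 3L, from 9364611 to 9378384 in build dm3. From low to high coordinate the genes were ordered Hsp67Bc, then Hsp22 with Hsp67Bb, then Hsp26, Hsp67Ba, Hsp23 and Hsp27. Hsp22 and Hsp67Bb shared the deposited locus from 9365822 to 9368064 and 1 transcription start identifier, and each had 1 further identifier of its own. The division of fragments between this pair therefore rests on the authors' transcript model. The other 5 members each had a locus of their own. In the later reference annotation, used for structure only, Hsp67Bb carries the symbol CG4456, Hsp22 has 1 transcript model of 1 exon and 1 of 3 exons, and Hsp23, Hsp26, Hsp27, Hsp67Ba and Hsp67Bc have single-exon models.

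AGO2 had 6.33 FPKM (4.50 to 8.16) in the 51B homozygote against 46.5 FPKM (39.7 to 53.3) in the 51B heterozygote, which separates these labels. In V966M it had 101 FPKM (83.4 to 118) in the homozygote against 150.02 FPKM (111 to 189) in the heterozygote, with overlapping intervals that do not. FPKM counts fragments scaled to transcript length and to library size, so levels of different genes can be compared. FPKM summed to between 493829 and 645245 per genotype. Male markers were present, with roX1 between 51.8 and 113 FPKM and Mst87F between 514 and 890 FPKM, while the yolk protein genes Yp1 and Yp2 stayed between 0.225 and 0.487 FPKM. Yp3 had 6.34 to 8.89 FPKM and the chorion gene Cp15 4.68 to 10.9 FPKM. The deposited interval around each value, whose level is not stated, was used as its error. Among genes with at least 5 FPKM, its upper end lay a median of 16.6%, 24.9%, 29.2% and 15.7% above the value in the V966M homozygote, the V966M heterozygote, the 51B homozygote and the 51B heterozygote.

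As deposited, Hsp22 was the member that separated all 4 genotypes. The V966M homozygote had 52.6 FPKM of Hsp22 (deposited interval 43.7 to 61.5) and the V966M heterozygote had 81.5 FPKM (63.2 to 99.8). The level was 443 FPKM (266 to 620) in the 51B homozygote and 140 FPKM (119 to 162) in the 51B heterozygote. None of these 4 intervals overlapped another as deposited, with the 51B homozygote highest and the V966M homozygote lowest. After the rescaling described below, those of V966M overlapped, at 46.7 to 65.8 FPKM in the homozygote and 55.8 to 88.1 FPKM in the heterozygote.

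The cytosolic chaperone gene Hsp26 had 100.03 FPKM (83.9 to 116) in the V966M homozygote and 124 FPKM (95.1 to 154) in the V966M heterozygote. It had 172 FPKM (116 to 227) in the 51B homozygote and 150 FPKM (127 to 173) in the 51B heterozygote. The intervals of both genotypes of an allele overlapped.

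Hsp23, also cytosolic, had 73.2 FPKM (61.4 to 85.0) in the V966M homozygote and 67.9 FPKM (51.7 to 84.1) in the V966M heterozygote. It had 114 FPKM (78.9 to 148) in the 51B homozygote and 108 FPKM (91.4 to 124) in the 51B heterozygote. The gene thus sat higher in the 51B stock, but the homozygotes' intervals overlapped.

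Hsp27, the nuclear member, had 52.8 FPKM (44.4 to 61.1) in the V966M homozygote and 57.0 FPKM (44.0 to 70.1) in the V966M heterozygote. Its level was 88.2 FPKM (60.7 to 116) in the 51B homozygote and 61.3 FPKM (52.2 to 70.4) in the 51B heterozygote. All intervals of Hsp27 overlapped within each allele and between alleles at matched zygosity.

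The remaining 3 genes were expressed at lower levels. Hsp67Bb, the neighbour that shares its locus with Hsp22, had 9.26 FPKM (7.22 to 11.3) in the V966M homozygote, 11.5 FPKM (8.41 to 14.6) in the V966M heterozygote, 12.7 FPKM (8.07 to 17.3) in the 51B homozygote and 13.5 FPKM (11.0 to 16.0) in the 51B heterozygote. Hsp67Ba had 7.83 FPKM (6.34 to 9.31), 8.05 FPKM (6.04 to 10.06), 8.84 FPKM (6.0003 to 11.7) and 6.96 FPKM (5.70 to 8.21) in that order. For neither gene did the intervals separate any of the compared genotypes.

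Hsp67Bc was the lowest member in every genotype. It had 3.68 FPKM (2.69 to 4.67) in the V966M homozygote, 3.95 FPKM (2.58 to 5.33) in the V966M heterozygote, 1.61 FPKM (0.805 to 2.41) in the 51B homozygote and 2.77 FPKM (1.89 to 3.65) in the 51B heterozygote. Its low point was the 51B homozygote, the genotype in which Hsp22 was at its highest.

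**Figure D1:**
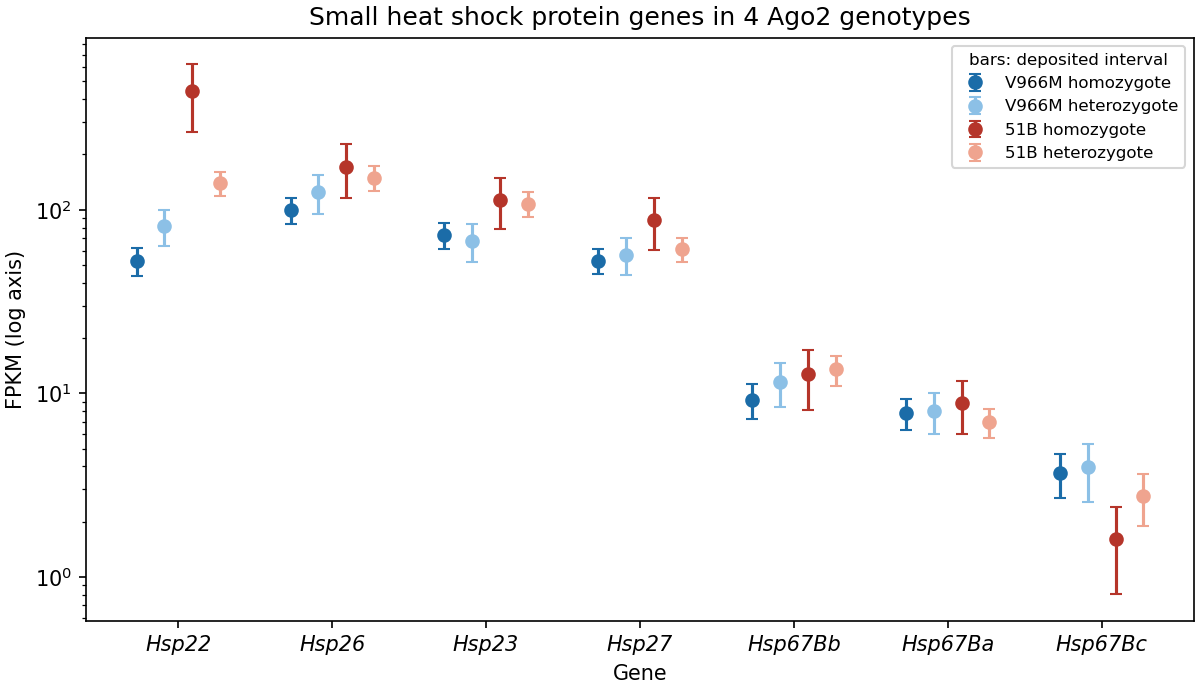
FPKM on a log axis for the 7 genes in the 4 genotypes, with the deposited interval as bars and 1 value per point. Hsp22 spans 52.6 to 443 FPKM with 4 separate intervals as deposited, of which the V966M pair overlaps after rescaling. The other genes differ less between genotypes, at most 2.29-fold in the compared pairs, for Hsp67Bc between homozygotes.

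The order of levels within a genotype changed mainly by the place of Hsp22. In the V966M homozygote it ranked 4 of 7 and its interval overlapped that of Hsp27, whereas in the 51B homozygote it ranked 1 and its interval lay apart from that of Hsp26 in the next place. In the V966M heterozygote and the 51B heterozygote Hsp22 ranked 2, and its interval overlapped those of Hsp26 above and Hsp23 below. Hsp67Bb, Hsp67Ba and Hsp67Bc took places 5, 6 and 7 in all 4 genotypes. Hsp67Bb and Hsp67Ba did not differ beyond their intervals except in the 51B heterozygote.

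Summed over the 7 genes, the level was 299 FPKM in the V966M homozygote and 354 FPKM in the V966M heterozygote, and 840 FPKM in the 51B homozygote and 483 FPKM in the 51B heterozygote. Hsp22 made up 17.6% and 23.0% of this sum in the V966M homozygote and heterozygote, and 52.8% and 29.1% in the 51B homozygote and heterozygote. Without Hsp22 the sums were 247 FPKM in the V966M homozygote and 273 FPKM in the V966M heterozygote, and 397 FPKM in the 51B homozygote and 342 FPKM in the 51B heterozygote. Most of the difference between both 51B genotypes in summed level was therefore the difference of Hsp22.

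**Figure D2:**
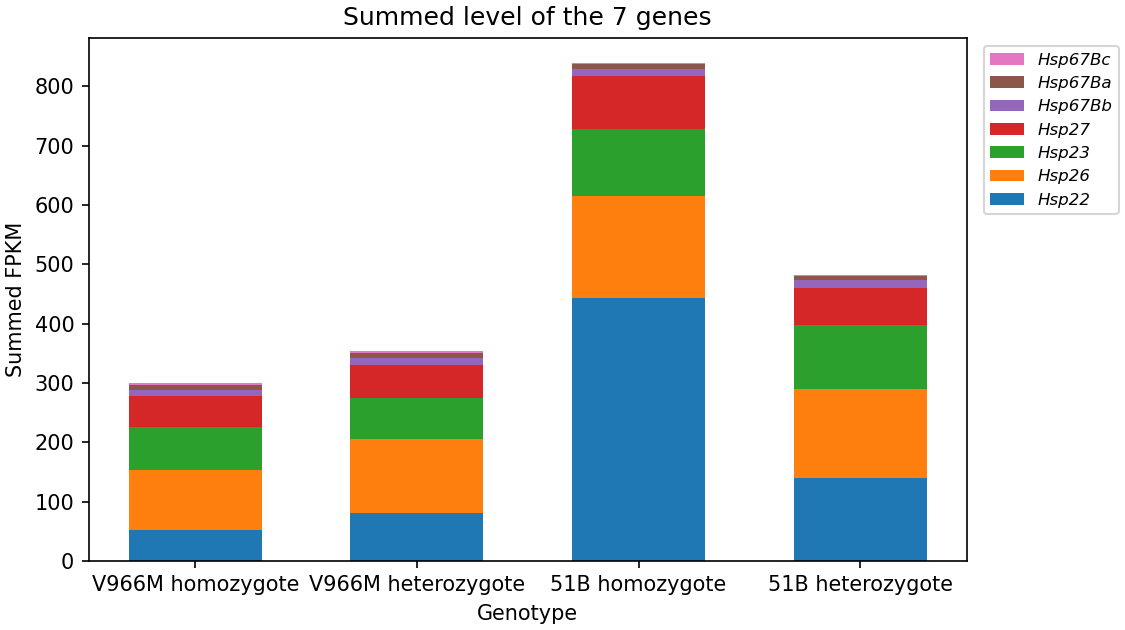
Summed FPKM of the 7 genes in each genotype, with 1 colour per gene. The bar of the 51B homozygote reaches 840 FPKM, of which Hsp22 is 52.8%.

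Ratios between members of the same library do not depend on the scale of that library. The ratio of Hsp22 to Hsp26 in FPKM was 2.58 in the 51B homozygote and 0.936 in the 51B heterozygote, and 0.526 in the V966M homozygote and 0.655 in the V966M heterozygote. The ratio of Hsp22 to Hsp67Bb was 34.9 and 10.4 in the 51B homozygote and heterozygote, and 5.68 and 7.07 in the V966M homozygote and heterozygote. Fragments of the transcript that both genes share cannot be told apart from those of each gene alone in these values. The ratio of Hsp26 to Hsp27 lay between 1.90 and 2.44 over the 4 genotypes. The ratio of Hsp67Bc to Hsp67Ba was 0.182 in the 51B homozygote and 0.398 in the 51B heterozygote, and 0.470 and 0.491 in the V966M homozygote and heterozygote.

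For the comparison of the 51B homozygote with its heterozygote, a gene was called where log2((FPKM + 1)/(FPKM + 1)) was at least 1 in size, a 2-fold change, and the deposited intervals did not overlap. This scale understates changes of genes with low values. All 7 members passed the filter of status OK in every genotype and a mean of at least 1 FPKM, as did 10872 genes in all. Hsp22 was called higher in the 51B homozygote, the single call among the 7 members, where 1.69% of all analysed genes were called higher and 2.81% in either direction. Its FPKM was 3.16-fold that of the heterozygote and its log2 change was 1.65, the 51st highest change among the analysed genes. The nearest ends of the intervals, 266 FPKM in the homozygote and 162 FPKM in the heterozygote, differed 1.65-fold. In whole flies, a change in the share of expressing cells and a change in RNA per cell cannot be told apart.

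The other members were not called in 51B. Hsp27 had a log2 change of 0.52, Hsp67Ba of 0.31 and Hsp26 of 0.19. Hsp23, with 0.07, and Hsp67Bb, with -0.08, lay close to 0. Hsp67Bc had -0.53, with overlapping intervals. The median of the 7 members was 0.19, against 0.07 over all analysed genes, and without Hsp22 it was 0.13. After the rescaling described next, these medians were 0.07 for the 7 members, -0.04 for all analysed genes and 0.0081 without Hsp22. Of the sex markers, Cp15 was also called higher in the 51B homozygote, with 10.9 FPKM (6.44 to 15.3) against 4.68 FPKM (3.22 to 6.15) in the heterozygote, and not after rescaling. The other 4 female markers had overlapping intervals in this comparison. As deposited, so had the 6 male markers, among which the accessory gland genes Acp26Aa and Acp36DE had log2 changes of -0.57 and -0.59. After rescaling the intervals of Acp26Aa, Acp36DE and roX1 lay apart, and those of the other male markers overlapped. Rescaled, Acp26Aa had 36.7 FPKM in the 51B homozygote against 60.0 FPKM in the 51B heterozygote. Acp36DE had 81.6 FPKM against 135 FPKM and roX1 50.9 FPKM against 70.8 FPKM, in that order. The part of these sex markers in the Hsp22 result was not tested.

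Each library may also be set to a common scale, by the median over genes of the ratio between its value and the geometric mean of all 4 values, which is called rescaling here. This moved the median log2 change of all analysed genes to -0.04 in 51B, against 0.07 as deposited, and to -0.0046 in V966M, against -0.25. After rescaling Hsp22 kept its call in 51B with a log2 change of 1.53, as 1 of 7 members, where 1.29% of all analysed genes were then called higher. Hsp23 changed sign to -0.05, and the remaining members kept their direction.

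In V966M, none of the 7 members was called between homozygote and heterozygote, where 0.414% of all analysed genes were called. As deposited, Hsp22 had the largest change of the members, a log2 change of -0.62, and the nearest ends of its intervals were 61.5 FPKM in the homozygote and 63.2 FPKM in the heterozygote. Intervals lay apart in this direction for 1 of 7 members and for 8.34% of all analysed genes. After rescaling its change was -0.35, its intervals overlapped, and Hsp23 had the largest change, 0.38, also with overlapping intervals. Hsp26 had -0.31 and Hsp67Bb -0.29, close to the all-gene median of -0.25. Hsp23 was the 1 member above 0 as deposited, with 0.11. The median of the members was -0.11 as deposited and 0.14 after rescaling. The small negative values of Hsp27 (-0.11), Hsp67Bc (-0.08) and Hsp67Ba (-0.04) turned positive after rescaling, at 0.16, 0.14 and 0.21.

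**Figure D3:**
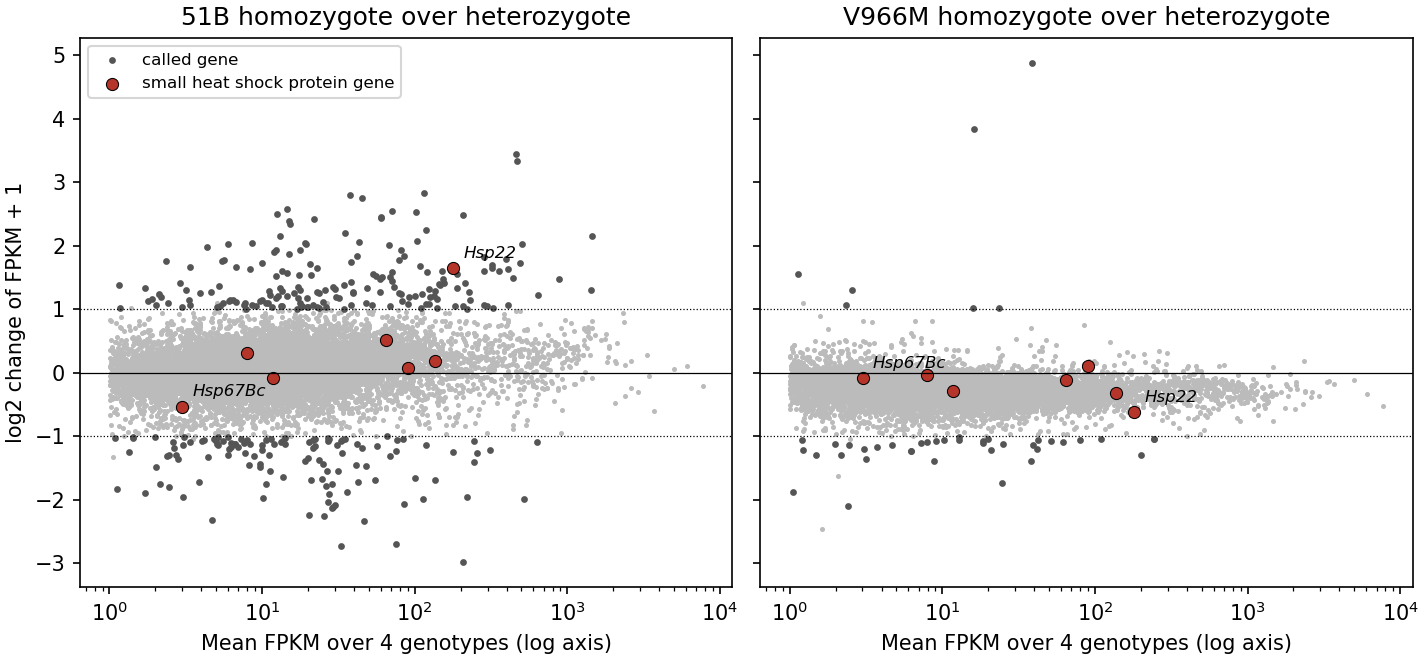
Log2 change of FPKM + 1 against mean FPKM on a log axis for all analysed genes, for the homozygote over the heterozygote of 51B (left) and V966M (right), with called genes in dark grey and the 7 members in red. Hsp22 lies at 1.65 in 51B and at -0.62 in V966M, and the other members lie between the dotted 2-fold lines in both.

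Hsp22 also differed between the stocks at matched zygosity. These comparisons reuse the libraries of the comparisons above. Between homozygotes, Hsp22 was called lower in V966M, with 52.6 FPKM in V966M against 443 FPKM in 51B, a log2 change of -3.05 that was 8.42-fold lower. It was the single call among 7 members, where 2.78% of all analysed genes were called lower and 5.53% in either direction. The nearest interval ends differed 4.32-fold, and 2 of 10872 analysed genes had a lower log2 change. After rescaling the change was -2.93, and 1.82% of all analysed genes were called lower.

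Intervals also lay apart between homozygotes for Hsp26 and Hsp67Bc, which went in opposite directions and were not called. Hsp26 was 1.72-fold lower in V966M, with nearest interval ends of 116 FPKM in both homozygotes. Hsp67Bc was 2.29-fold higher in V966M, but at these low levels its log2 change of FPKM + 1 was 0.84. Intervals lay apart for 3 of the 7 members and for 18.2% of all analysed genes. After rescaling they lay apart for 2 of the 7 members, Hsp22 and Hsp67Bc, and for 16.9% of all analysed genes, and those of Hsp26 overlapped. Hsp27 (-0.73), Hsp23 (-0.63), Hsp67Bb (-0.42) and Hsp67Ba (-0.16) had negative log2 changes with overlapping intervals. The median of the members was -0.63, against -0.11 over all analysed genes, and after rescaling -0.51, against -0.0098.

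Between heterozygotes, none of the 7 members was called as deposited, where 3.04% of all analysed genes were called. Hsp22 had 81.5 FPKM in V966M against 140 FPKM in 51B, a log2 change of -0.78 with intervals apart. Hsp23 had 67.9 FPKM in V966M against 108 FPKM in 51B, a log2 change of -0.66 with intervals apart. The all-gene median ran the other way, at 0.26, and intervals as deposited lay apart with V966M lower for 2.06% of analysed genes. After rescaling, which brought that median to 0.02, Hsp22 was called lower with -1.05, where 0.717% of all analysed genes were, and Hsp23 reached -0.94, short of the 2-fold threshold. The rescaled intervals of Hsp26 also lay apart, at 135.87 FPKM in V966M and 135.89 FPKM in 51B for their nearest ends. Rescaled intervals lay apart for 3 of the 7 members and, in either direction, for 16.0% of all analysed genes. The median of the members was -0.21 as deposited and -0.47 after rescaling. Hsp67Ba changed sign between the scales, with 0.19 as deposited and -0.06 rescaled.

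The genes around the cluster were examined because heterozygotes carry a balancer copy of this region, so that zygosity at Ago2 and the origin of the 67B copies cannot be told apart. Within 20 kb of the outer ends of the cluster lay 14 other genes, of which 13 were analysed, and none of these 13 was called in 51B or V966M. In 51B their log2 changes ran between -0.38 for UGP and 0.89 for Cpr67B, with a median of 0.21. The other 11 were PGRP-LF, CG32039, CG34455, CG34456, CG4447, Klp67A, CG4452, Fdxh, CG4461, CG4080 and eIF-4E. The cuticle protein gene Cpr67B had 104 FPKM (72.1 to 137) in the 51B homozygote and 55.8 FPKM (47.5 to 64.1) in the 51B heterozygote. Over the whole of 3L, 1.97% of 2083 analysed genes were called higher in the 51B homozygote, against 1.69% of all analysed genes.

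Inside the cluster, between the Hsp22 locus and Hsp26, lies CG4461, another gene with an alpha-crystallin domain. It had 242 FPKM (200 to 284) in the V966M homozygote and 215 FPKM (161 to 268) in the V966M heterozygote. In the 51B homozygote it had 233 FPKM (155 to 311), against 165 FPKM (140 to 190) in the 51B heterozygote. By value CG4461 was thus above every listed member except Hsp22 in the 51B homozygote, and its intervals overlapped within each allele. In both 51B genotypes its interval overlapped those of Hsp26 and Hsp22, while in both V966M genotypes it lay apart from every member.

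**Figure D4:**
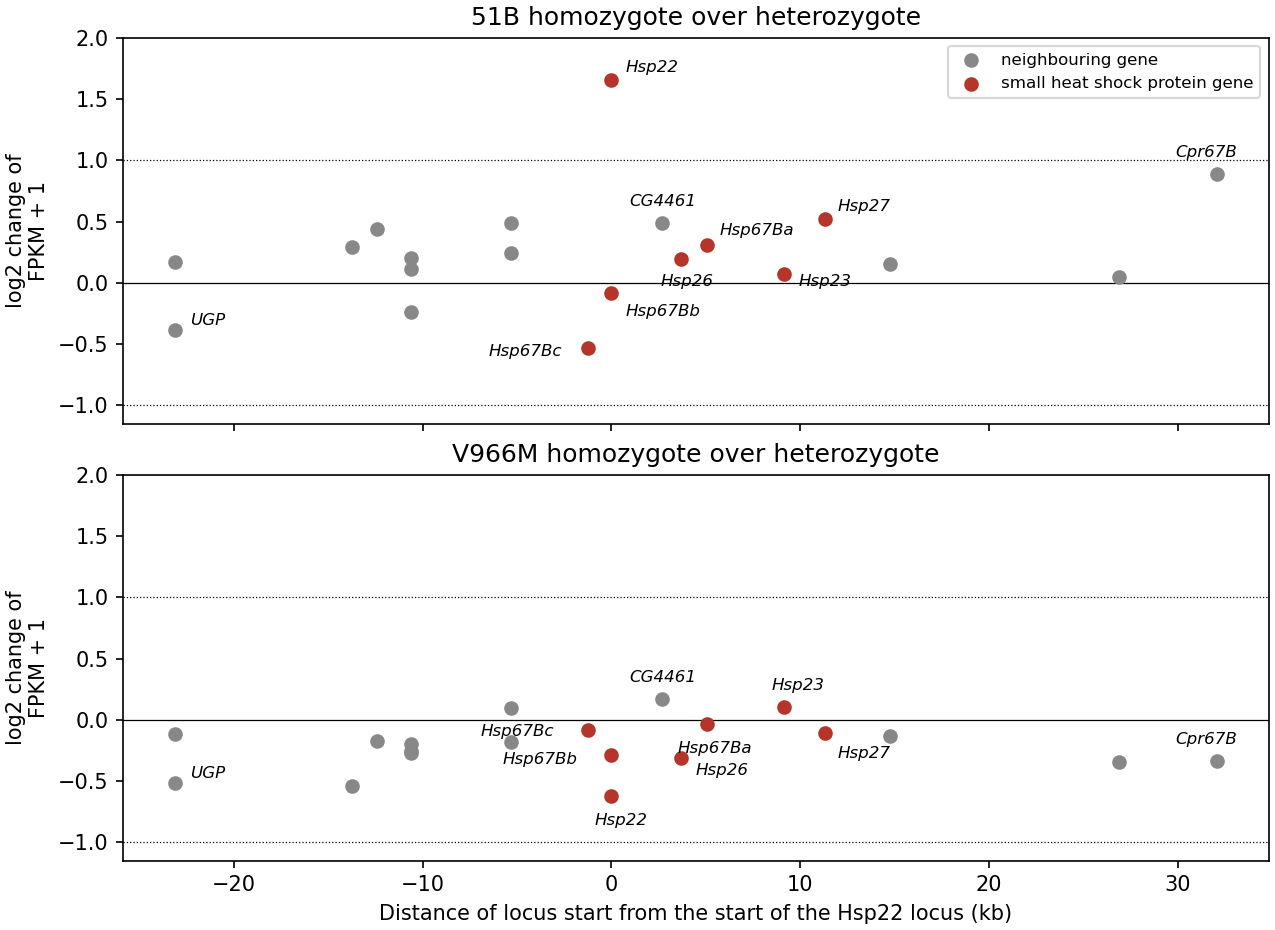
Log2 change of FPKM + 1 for members (red) and neighbouring genes (grey) against the distance of their locus start from that of Hsp22, for the homozygote over the heterozygote of 51B (top) and V966M (bottom). In 51B Hsp22 stands at 1.65 while Hsp67Bb, at the same locus, is at -0.08 and no neighbour passes the dotted 2-fold line.

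Other chaperone lists give the setting of the Hsp22 result. Of 5 further alpha-crystallin genes listed, 4 were in the table and analysed, and none was called in either allele. In 51B their median log2 change was 0.52, led by CG7409 with 431 FPKM (288 to 574) in the homozygote against 254 FPKM (215 to 294) in the heterozygote. The small heat shock protein gene l(2)efl had 195 FPKM in the 51B homozygote and 132 FPKM in the 51B heterozygote, with overlapping intervals. In V966M the median of these 4 genes was 0.11, against -0.25 over all analysed genes. After rescaling it was 0.38 in V966M, against -0.0046 over all analysed genes, and 0.40 in 51B, against -0.04. Between the homozygotes of V966M and 51B the median of the 4 genes was -0.00219 as deposited, where Hsp22 had -3.05.

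Of the Hsp70 family, whose products refold the clients held by small heat shock proteins, 6 genes were analysed. Of these 6, Hsp70Aa and Hsp70Ab were called higher in the 51B homozygote, where 1.69% of all analysed genes were, and the median log2 change was 0.76. Hsp70Aa had 9.05 FPKM (6.47 to 11.6) in the 51B homozygote and 3.86 FPKM (3.14 to 4.57) in the 51B heterozygote, far below the level of Hsp22. After rescaling neither was called, and as near-identical copies they can exchange fragments. In V966M the Hsp70 median was -0.29 with no calls, against -0.25 over all analysed genes, and -0.08 after rescaling. Between homozygotes Hsp70Aa and Hsp70Ab were called lower in V966M, where 2.78% of all analysed genes were. These between-homozygote calls were kept after rescaling, where 1.82% of all analysed genes were called lower. Of 14 other chaperone and co-chaperone genes, 11 were analysed and none was called in either allele, with medians of 0.14 in 51B and -0.34 in V966M. After rescaling these medians were 0.01 in 51B and -0.07 in V966M. The genes of heat shock factor (Hsf) and Starvin (stv) and Hsc70-4 were not analysed, since their status was not OK in every genotype. The mitochondrial chaperonin gene Hsp60 had 295 FPKM (227 to 362) in the 51B homozygote and 191 FPKM (166 to 216) in the 51B heterozygote, a log2 change of 0.62. CHIP, the gene of a co-chaperone ubiquitin ligase, had -0.33.

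**Figure D5:**
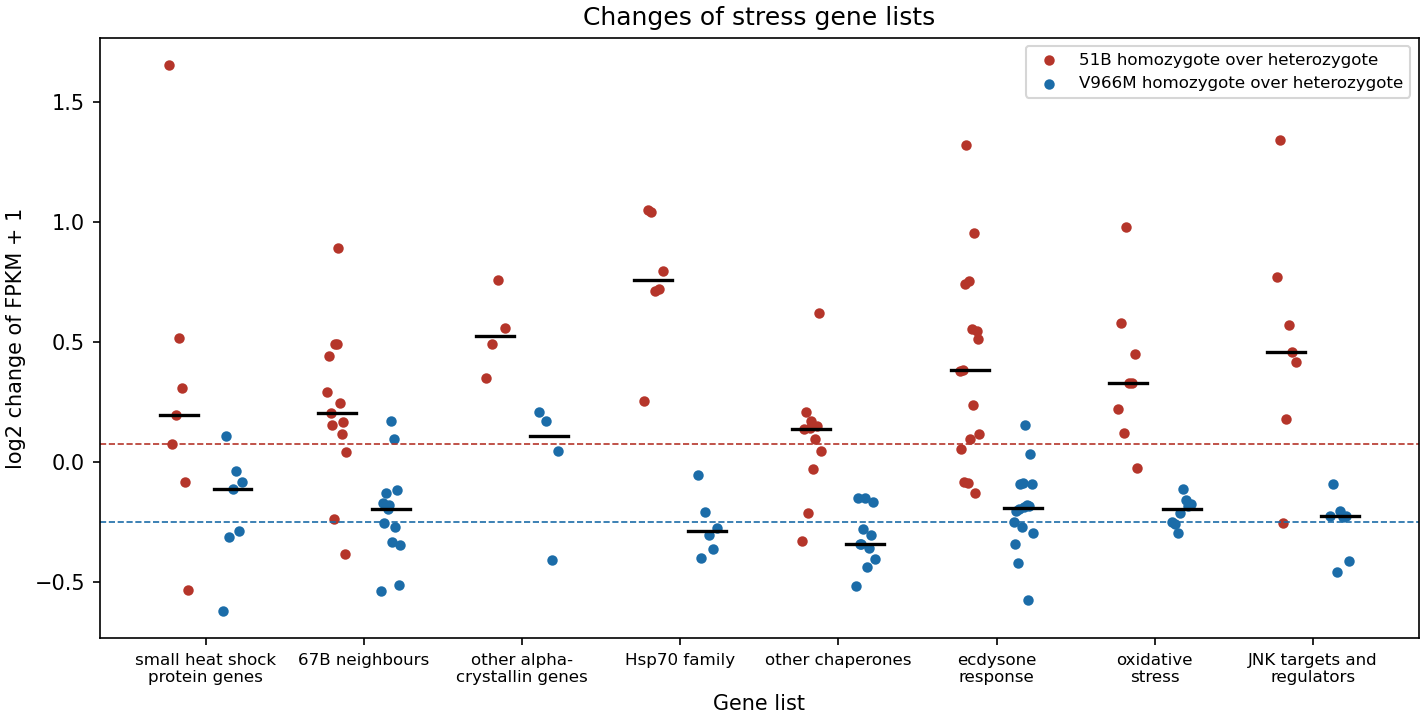
Log2 change of FPKM + 1 for each analysed gene of 8 lists, in the homozygote over the heterozygote of 51B (red) and V966M (blue), with list medians as black bars and all-gene medians as dashed lines. As deposited, the Hsp70 family has a median of 0.76 in 51B and -0.29 in V966M, where the all-gene medians are 0.07 and -0.25. Hsp22 is the highest point of all lists.

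Genes with the pattern most like that of Hsp22 were sought by the Euclidean distance between log2(FPKM + 1) profiles over the 4 genotypes, each centred on its mean, among 5819 other genes with a mean of at least 10 FPKM. The nearest was CG16762 on 3L, at a distance of 0.355. This gene shared its deposited locus with another gene, so its values may depend on how fragments were divided. It had 28.2 FPKM in the V966M homozygote and 36.1 FPKM in the V966M heterozygote, and 208 FPKM in the 51B homozygote and 53.4 FPKM in the 51B heterozygote. Next came dro4 on 3L, at 0.520, and CG15784 on X, at 0.682. Among the other members with a mean of at least 10 FPKM, Hsp27 was the closest and would rank 487 at a distance of 1.74. Hsp67Bb would rank 1665. Hsp67Ba and Hsp67Bc fell below that mean and were not ranked. Nearest to the median profile of the 7 members were CG15483, CG30460 and CG7514, with distances of 0.0643, 0.0655 and 0.0661. Of these, CG30460 also shared its locus with another gene. With 4 values per gene these distances describe the libraries only.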

How the data were processed

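Per the file headers, the authors deposited for every gene and genotype an FPKM value, the bounds of an interval and a status. TopHat and Cufflinks with build dm3 are named in the submitters' processing notes. For versions, annotation, strand setting and the way duplicate runs were combined, the entry is: not given in the sources used here. Depth is unknown, so no counting interval was computed. FPKM shared between overlapping transcripts, as for Hsp22 and Hsp67Bb, depends on that processing. Start coordinates were converted to count from 1.

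The analysed genes had a mean of at least 1 FPKM and the status OK throughout. The pseudocount was 1 FPKM, and a call needed a 2-fold change and intervals that did not overlap. No test was run, since each genotype had a single value. Rescaling divided the libraries by 0.936 (V966M homozygote), 1.13 (V966M heterozygote), 1.02 (51B homozygote) and 0.932 (51B heterozygote). Alternatives varied the pseudocount, filter and call. Python 3.11.15 with pandas 2.3.3 was used.

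Members and lists were chosen with earlier results of these data known. Named were all members, the analysed neighbours, AGO2, called list genes (otherwise the 2 with the largest change in 51B) and the 3 genes nearest to each profile. Genes named outside that rule are Yp1, Yp2, Yp3, Cp15, roX1, Mst87F, Acp26Aa and Acp36DE as sex markers. Hsf, Hsc70-4 and stv were also named outside it, as list genes left out for their status. Later symbols came from RefSeq, in which 1 member had another symbol. Promoter and protein sequences were not used here.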

Additional observations from a re-analysis of the deposited data

Results flagged for a closer look

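The change between homozygote and heterozygote had opposite signs in both alleles, as deposited and after rescaling, for Hsp22 and Hsp26. With 1 value per genotype this difference was not tested. As deposited, 6448 of 10872 analysed genes lay above 0 in 51B and 688 in V966M. After rescaling these counts were 4936 and 5315. The share of all analysed genes with opposite signs on both scales was not computed. For Hsp22 the log2 change in 51B exceeded that in V966M by 2.27 (1.65 in 51B and -0.62 in V966M), and by 1.88 after rescaling, and 29 of 10872 analysed genes had a larger difference. For Hsp26 the difference was 0.51 (0.19 in 51B and -0.31 in V966M) and 0.11 after rescaling, with overlapping intervals in both alleles. As deposited, this difference of Hsp26 ranked 3141 from the top of the 10872 analysed genes.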

How the results depend on the processing

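Hsp22 was called higher in the 51B homozygote, and lower in V966M between homozygotes, under rescaling, pseudocounts of 0.1 and 5 FPKM, a 1.5-fold threshold, and calls without the interval or the fold condition. The number of members called in V966M was 0 as deposited, and 1 (Hsp22, lower) with a 1.5-fold threshold or with the interval condition alone. Between homozygotes it was 1 as deposited, 2 with a pseudocount of 0.1 FPKM (Hsp67Bc, log2 change 1.15, joined Hsp22), and 3 with a 1.5-fold threshold or the interval condition alone (Hsp26 and Hsp67Bc joined). Between heterozygotes it was 0 as deposited, 1 after rescaling (Hsp22), and 2 with a 1.5-fold threshold or the interval condition alone (Hsp22 and Hsp23). These counts follow from the construction of each rule. With the interval condition alone, 18.2% of all analysed genes were apart between homozygotes, in either direction. The share apart with V966M lower between heterozygotes was 2.06%, and the share lower in the V966M homozygote than in its heterozygote was 8.34%. No share of all analysed genes was computed for the 1.5-fold threshold or the other pseudocounts, so those counts of members have no background. Rescaling moved the median log2 change of the 7 members to 0.07 in 51B, against 0.19 as deposited, and changed its sign in V966M, to 0.14 against -0.11. Between homozygotes it was -0.51 against -0.63, and between heterozygotes -0.47 against -0.21. No called change of a member reversed. The labels give no replicate numbers, so no replicate block was fitted, and a joint fit of allele and zygosity was not run. Depth is unknown, and the wide interval of Hsp22 in the 51B homozygote limits the size of its change.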

Other observations

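Stress and hormone response genes outside the chaperone lists also included calls in the 51B homozygote. Thor, which encodes a translational repressor downstream of insulin and stress signalling, had 362 FPKM (243 to 481) in the 51B homozygote against 142 FPKM (121 to 164) in its heterozygote. In V966M it had 119.96 FPKM in the homozygote against 128 FPKM in the heterozygote. It was the 1 call among 7 genes of JNK signalling and its targets, with a list median of 0.46 in 51B. Eip75B, an early ecdysone response gene that encodes a nuclear receptor, had 49.2 FPKM (44.1 to 54.3) in the 51B homozygote against 19.1 FPKM (18.1 to 20.1) in the 51B heterozygote. It was the 1 call among 16 analysed ecdysone response genes, with a median of 0.38 in 51B and -0.19 in V966M. Over all analysed genes the medians were 0.07 in 51B and -0.25 in V966M. After rescaling the ecdysone list had 0.26 in 51B and 0.06 in V966M. The calls of Thor and Eip75B held after rescaling, and 1.69% of all analysed genes were called higher in the 51B homozygote.

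ImpL2, an ecdysone-inducible gene whose product binds insulin-like peptides, was called lower in V966M between homozygotes, with 57.4 FPKM in V966M against 138 FPKM in 51B. In that comparison 2.78% of all analysed genes were called lower. None of 8 analysed oxidative stress genes was called in either allele, with medians of 0.33 in 51B and -0.20 in V966M. After rescaling these medians were 0.21 in 51B and 0.08 in V966M. Of all analysed genes, 2.81% were called in 51B and 0.414% in V966M. The glutathione transferase gene GstD1 was called lower in V966M between homozygotes, with 354 FPKM in V966M against 715 FPKM in 51B, and not after rescaling.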
